A study of Oryza sativa with 24 samples.

Results

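The rice accessions ZS97 and 9311 were compared on 6 of the 24 arrays of a cold experiment, chosen by the accession and time named in the labels. ZS97 gave 3 arrays (before cold, after 6 h and after 24 h of cold) and 9311 gave 3 arrays at the same times, with 1 array per accession and time. The experiment followed seedlings of 8 accessions, raised in potting soil to the 4-leaf stage and then kept at 4 °C under a day and night cycle, with shoot and leaf tissue taken for Affymetrix arrays. Both accessions received the same cold, and the labels name no treatment that set them apart and no introduced gene or mutation in either. The labels do not say how many plants made up a sample. There are no replicate arrays, and the 3 times stand as the paired units of the comparison, so the p-values measure only the spread between these samples, which may be technical.

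Both are indica rices. ZS97 is widely used in China as a maintainer line for hybrid seed, and 9311 is an elite line whose genome served as an indica reference. Indica accessions differ in gene content and in the sequence of shared genes, and inherited differences in transcript level can act close to a gene or through regulators elsewhere. Cold slows growth in rice seedlings, induces regulators of the DREB1 and MYB families, and lowers chlorophyll synthesis.

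Median intensity ranged over the 6 arrays from 44.6 to 46.5. The highest of 10 control probe sets for the fungus Magnaporthe, here called the control level, was 98.6, 89.4 and 95.7 in ZS97 (before, 6 h, 24 h) and 96.9, 137 and 96.6 in 9311. The 9311 array at 6 h stood apart in this respect, with 11978 probe sets over its control level, against 15896 to 17216 on the other 5 arrays. Its mean intensity was also the lowest, at 183 against 190 to 199. Log2 ratios of 3' to 5' control probe sets were 2.95 to 3.99 for actin and 0.60 to 0.95 for GAPDH. For EF1a the ratio was -1.29 on the 9311 array at 24 h, against -0.63 to -0.40 on the other 5. Of the 18 arrays of the other accessions, the Lixingeng array from before cold and the 24 h array of MH63 were described as mixed in an earlier account of these data. Their Spearman correlation of 0.992 was above that of all other pairs of arrays, and they were left out wherever the other accessions are described, which leaves 16. Spearman correlations between ZS97 and 9311 at the same time were 0.970, 0.958 and 0.963. The leaf markers RCA, the rubisco activase, and CAB2R, a light-harvesting protein, were among the brightest probe sets, RCA at 11737, 12368 and 11719 in ZS97 and 11353, 11653 and 12000.2 in 9311. Of the markers of other tissues, 2 of 3 for root, 3 of 3 for pollen and anther, 2 of 3 for endosperm and 3 of 3 for meristem and panicle were not over the control level on any of the 6 arrays, and none of the marker genes passed the test described next. The exceptions were the silicon channel Lsi1 and the globulin Glb1.

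The first question was which differences held at all 3 times. Intensities were taken as log2(value + 32), and the difference ZS97 minus 9311 was fitted in limma with the time point as a block. A probe set passed at a Benjamini-Hochberg adjusted p under 0.05 over all 57194 tested, if its differences had 1 sign at all 3 times. The test is of the mean over the 3 times, so a difference could pass though small at 1 of them. In this fit 4630 probe sets (8.1%) passed. Of these, 2840 (4.97%) were higher in ZS97 and 1790 (3.13%) were lower. The difference was at least 2-fold in 1 direction at each of the 3 times for 410 of them (0.717%), 240 higher (0.42%) and 170 lower (0.297%). Among 17905 genes, each read by 1 chosen probe set, 2370 (13.2%) passed, 1627 higher (9.09%) and 743 lower (4.15%), and 212 (1.18%) were at least 2-fold apart at each time, 130 higher (0.726%) and 82 lower (0.458%). The median difference over all genes was 0.04.

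**Figure D1:**
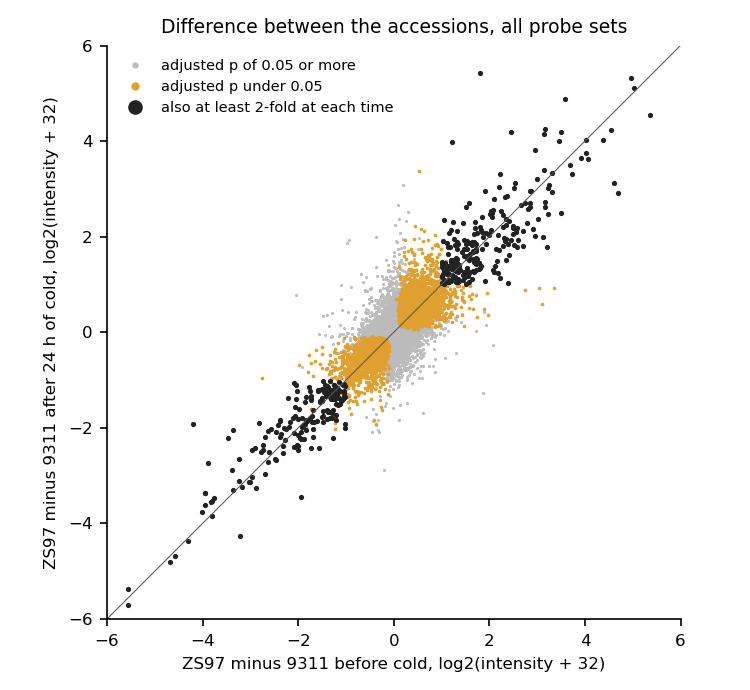
Each point is 1 of 57194 probe sets, placed by its difference ZS97 minus 9311 before cold (horizontal) and after 24 h of cold (vertical), both in log2(intensity + 32). Grey points did not pass the test, orange points passed, and the 410 black points were also at least 2-fold apart in 1 direction at each time. The black points lie along the diagonal in both directions, and the grey cloud lies around 0.

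The counts depended on which times entered. Without the pair at 6 h 2216 probe sets passed, without the pair at 24 h 2081, and without the pair before cold 5462. With the time point left out of the model 1153 passed. A fit without 1 time has 2 arrays fewer, so a call lost there, as given below gene by gene, does not by itself show a smaller difference. The difference was smaller in some of these fits and not in others. That of HSF10, 0.99 over all times, was 0.99 without the pair at 6 h and 0.63 without the pair at 24 h. Of the 4630, 1508 were not over the control level on any of the 6 arrays, so that their differences lie among dim readings. A fold on this scale understates the change of dim genes. An array reads hybridisation, so a difference in transcript level and a difference in the sequence under the probes cannot be told apart here. Likewise, in whole shoots, fewer cells of a type and less RNA per cell cannot be told apart.

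Enzymes of the glyoxylate cycle, which turns acetyl units from fat and amino acid breakdown into organic acids, were among the named genes with the largest differences toward ZS97. Isocitrate lyase ICL (LOC4343441) read 578, 913 and 453 in ZS97 (before cold, 6 h and 24 h), against 52.2, 40.3 and 30.3 in 9311. All 3 ZS97 arrays were over the control level and none of the 9311 arrays was. The fitted difference was 3.18 on the log2 scale (SE 0.16; SD of the 3 paired differences 0.46; adjusted p = 1.73e-05), a 9.04-fold higher value in ZS97. Malate synthase MS (LOC9268154), the next enzyme of the cycle, read 1103, 1043 and 859 in ZS97 and 194, 189 and 206 in 9311. The groups did not overlap, and ZS97 was 4.51-fold higher (log2 2.17, SE 0.12; adjusted p = 2.46e-05). Lack of overlap is given here and below as a description only. The genes were named for their difference or for passing, and the share of all genes without overlap was not counted. On 16 arrays of the other 6 accessions, ICL read 18.5 to 93.5, below every ZS97 reading.

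Several other genes read higher in ZS97 than in 9311 at every time. BURP16 (LOC4348595), of the plant BURP-domain family, read 3466, 2944 and 1536 in ZS97, against 339, 322 and 154 in 9311, and its differences of 3.24, 3.07 and 3.07 were nearly equal at the 3 times. It was 8.73-fold higher in ZS97 (log2 3.13, SE 0.10; adjusted p = 2.03e-06). SDH3-2 (LOC4343404), a subunit of succinate dehydrogenase in the respiratory chain, read 387, 346 and 223 in ZS97 and 48.1, 38.4 and 39.3 in 9311, where it was under the control level on all 3 arrays. Its difference was 2.22 (SE 0.12; adjusted p = 2.9e-05). The potassium transporter gene HAK18 (LOC4347862) read 1272, 1181 and 571 in ZS97 and 406, 292 and 179 in 9311, so that both accessions read lowest at 24 h while ZS97 stayed 3.17-fold higher (adjusted p = 9.21e-05). PMEI28 (LOC4344463), an inhibitor of pectin methylesterases, differed in its course as well. It read 109, 468 and 2385 in ZS97 and 28.3, 48.2 and 121 in 9311, with differences of 1.23, 2.64 and 3.98 at the 3 times (log2 2.62, SE 0.41; adjusted p = 0.00762). On the 16 arrays of the other accessions BURP16 read 14.4 to 928, below every ZS97 array. HAK18 read 350 to 1391 there (median 970), with 15 arrays above every 9311 array. PMEI28 read 29.2 to 4397 (median 1837), with 14 above every 9311 array. SDH3-2 read 43.1 to 963 (median 606), with 11 above every ZS97 array.

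Among the chaperones some were higher in ZS97 at every time. HSP81-3 (LOC4347405), a cytosolic HSP90, read 785, 736 and 642 in ZS97 and 263, 266 and 189 in 9311, and was 2.79-fold higher in ZS97 (log2 1.48, SE 0.10; adjusted p = 9.13e-05). Of its 4 other probe sets, 3 also passed, with differences of 1.16, 0.56 and 1.04, and 1 stood at 0.02. The small heat shock proteins HSP17.4 (LOC4332360), HSP18.1 (LOC4332361) and HSP17.7 (LOC4332363), which hold unfolding proteins in solution, lie close together on chromosome 3 by the order of RefSeq assembly ASM3414082v1. They are related copies, and how far each probe set reads the others was not tested. HSP17.4 read 132, 149 and 129.6 in ZS97 and 37.8, 28.7 and 24.8 in 9311 (log2 1.44, SE 0.08; adjusted p = 3.74e-05). The chosen probe set of HSP18.1 was dim, at 87.9, 87.5 and 69.5 in ZS97 and 20.4, 16.6 and 16.1 in 9311, under the control level on all 6 arrays (log2 1.19; adjusted p = 2.4e-05). Its other probe set, shared between transcripts, was over the level on at least 1 array and passed at 0.76. HSP17.7 read 192, 240.4 and 148.3 in ZS97 and 113, 102 and 92.8 in 9311 (log2 0.73; adjusted p = 0.00624). For these 3 neighbours the groups did not overlap, again a description of genes named for their difference or for passing. All 16 arrays of the other accessions read above every 9311 array for these 3 genes. Of the 16, 5, 8 and 7 read above every ZS97 array, so that ZS97 lay within their range. For HSP81-3, 13 read above every 9311 array and 1 above every ZS97 array. Over all 40 measured heat shock proteins and factors, 5 were higher (12.5%, against 9.09% of all genes) and 2 lower (5%, against 4.15%), with a median difference of 0.06, so the family as a whole lay near all genes. HSF10 (LOC4339409), a heat stress factor, read 103, 261 and 791 in ZS97 and 77.5, 117 and 223 in 9311 (log2 0.99; adjusted p = 0.0324), and HSP26.2 (LOC4340508) was dim and lower, at 22.5 to 24.08 in ZS97 and 36.5 to 56.2 in 9311. The calls of HSF10 and of HSP24.1, the other lower member, were lost without the pair at 6 h or the pair at 24 h.

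In the other direction, the chitinase gene Cht11 (LOC4331519) read 473, 266 and 308 in ZS97, against 2001, 1372 and 1850.2 in 9311. Its difference was -2.24 (SE 0.12; SD 0.23; adjusted p = 2.06e-05), a 4.72-fold higher value in 9311. On the same 16 arrays Cht11 read 1012 to 5093, so that ZS97 was the accession outside the range. APY3 (LOC4351367), an apyrase that splits nucleotide phosphates, read 228, 189 and 203 in ZS97 and 597, 529.5 and 589.6 in 9311, with differences of -1.28, -1.34 and -1.40 (adjusted p = 0.000111). BASS4 (LOC4329548), of the bile acid and sodium symporter family, read 119.8, 122 and 111 in ZS97 and 323, 349 and 345 in 9311 (log2 -1.31, SE 0.09; adjusted p = 9.25e-05). Both genes were nearly flat over the cold in each accession, and the groups stood far apart. GLO3 (LOC4337048), a glycolate oxidase of photorespiration, read 68.1, 87.2 and 64.9 in ZS97 and 270.4, 216 and 194 in 9311, under the control level on all ZS97 arrays and over it on all 9311 arrays (log2 -1.29, SE 0.11; adjusted p = 0.000345).

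OsDOS (LOC4327304), a zinc finger protein known in rice for delaying leaf senescence, read 37.5, 32.1 and 43.2 in ZS97 and 235, 293 and 784 in 9311. ZS97 stayed under its control level throughout, and the 9311 reading was highest at 24 h. The difference was -2.57 (SE 0.24; SD 0.78; adjusted p = 0.000526). A second probe set of the same gene, shared between transcripts, had the opposite sign, at 0.70 (adjusted p = 0.0459), so the probe sets of OsDOS disagree on the direction. BURP2 (LOC4338119) read 1708, 994 and 898 in ZS97 and 3701, 3492 and 2475 in 9311, and its second probe set differed alike, at -1.49 beside -1.44. RGP1 (LOC4346614) read 93.1, 81.5 and 69.9 in ZS97 and 229, 264 and 238 in 9311 (log2 -1.28; adjusted p = 0.000161), while its second probe set stood at 0.10 and did not pass. Among the remaining genes of the rule for named genes, MADS55, a MADS-box regulator, read 135 to 162 in ZS97 and 365 to 385 in 9311. The ligase-like 4CLL7 read 55.2 to 88.5 in ZS97 and 152 to 215 in 9311, and the oxidase gene LPR2 217 to 507 in ZS97 and 502 to 957 in 9311, where the groups overlapped across times but not within a time. Toward ZS97, OrysaZxb read 428 to 502 in ZS97 and 112 to 148.4 in 9311, and TF1 84.1 to 119.6 in ZS97 and 18.7 to 22.3 in 9311. All 24 of these leading named genes, 12 in each direction, still passed when any 1 of the 3 times was left out. Without the time point in the model HAK18, PMEI28, BURP2 and LPR2 no longer passed.

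**Figure D2:**
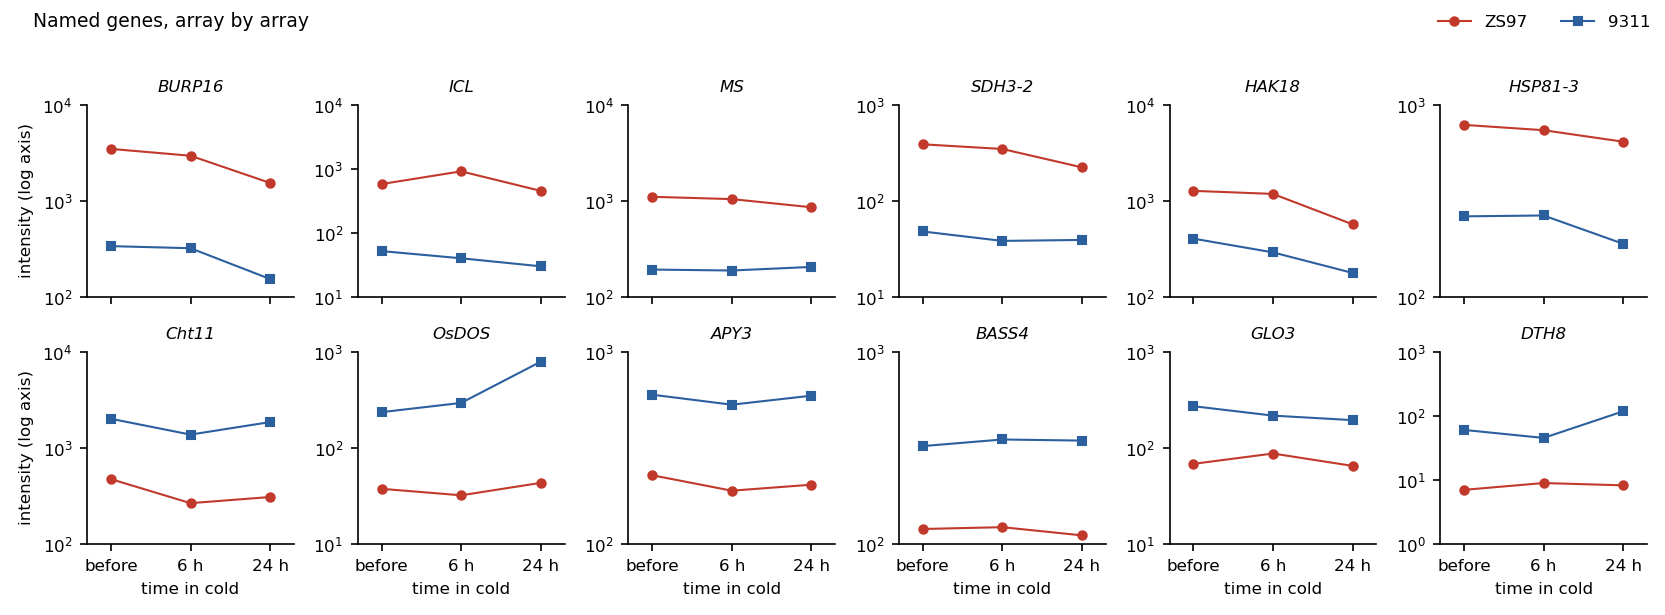
Intensity (log axis) of 12 named genes on each array, before cold and after 6 h and 24 h, with ZS97 as red circles and 9311 as blue squares. The first 6 panels show genes higher in ZS97 and the last 6 genes lower in ZS97. At every time the markers of the accessions are at least 2-fold apart on the log2(intensity + 32) scale, except for DTH8 at 6 h, where the difference was -0.91.

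Larger differences belonged to genes for which the tables give only a locus number. LOC4328727 read 1905, 1353 and 1074 in ZS97 and 15.5, 12.5 and 15.5 in 9311, a fitted difference of 4.95 (SE 0.15; adjusted p = 1.53e-06). Its other 3 probe sets passed in the same direction, at 2.79, 3.11 and 0.95. LOC4343183 read 1466, 1193 and 981 in ZS97 and 31.8, 29.2 and 22.1 in 9311, and LOC4333700 read 1167, 959 and 800.0 in ZS97 and 25.4, 27.1 and 19.1 in 9311. For these 3 genes every 9311 array read below the array medians. LOC4348272 read 2548, 1644 and 1013 in ZS97 and 202, 32.4 and 33.3 in 9311, and LOC4346431 read 349.5, 436 and 415 in ZS97 and 11.3, 12.4 and 10.3 in 9311. Lower in ZS97 were LOC4352609, at 40.6, 41 and 22.9 against 1839, 1527 and 1508 in 9311, and LOC4342360, at 63.6, 62.4 and 46.3 against 1309, 1147 and 1099.6. LOC4334987 read 4.17, 2.31 and 4.81 in ZS97, near the lower end of the scale, and 523, 314 and 345 in 9311 (-3.54). Its other probe sets, none over the control level, stood at -0.05, -0.88 and -0.01, and only that at -0.88 passed. LOC4342229 read 128, 138 and 156 in ZS97 and 1608, 1646 and 1820.0 in 9311, with almost the same difference at each time (-3.36, -3.30 and -3.30). LOC4329821 read 155, 80.4 and 42.8 in ZS97 and 1713, 1462 and 1405 in 9311 (-3.74), but its second probe set, which is shared between transcripts, had the opposite sign at 1.02 (adjusted p = 0.00721). All 10 passed under each alternative setting tried.

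The 4 genes of chlorophyll breakdown compared here, a set put together after values had been seen, were all higher in ZS97. In this pathway NYC1 and NOL reduce chlorophyll b, SGR removes the magnesium and RCCR1 reduces the red breakdown product. SGR (LOC4347672) read 362, 305 and 233 in ZS97 and 129, 66.1 and 73.3 in 9311 (log2 1.47, SE 0.11; adjusted p = 0.000186), and its second probe set differed by 1.43. RCCR1 (LOC4348519) read 1439, 1775 and 1060.5 in ZS97 and 778, 589 and 489.9 in 9311 (log2 1.16, SE 0.14; adjusted p = 0.00209). For both genes the lowest ZS97 array was above the highest 9311 array. NOL (LOC4333604) read 768, 1164 and 1207 in ZS97 and 463, 475 and 517 in 9311 (log2 1.04; adjusted p = 0.00248), with a second probe set at 1.01. NYC1 (LOC4327178) read 731, 1100.5 and 1258 in ZS97 and 524, 545 and 681 in 9311 (log2 0.76; adjusted p = 0.00867). All 4 of 4 passed, against 9.09% of all genes in that direction, with a median difference of 1.096. This count is a description, since the set was chosen with values known. Each gene differed least before cold and most at 6 h, where the differences were 1.78, 1.54, 1.24 and 0.97. Over all probe sets, too, more were at least 2-fold higher in ZS97 at 6 h (616) than before cold (370) or at 24 h (530). NYC1 no longer passed without the pair at 6 h or the pair at 24 h. The other 3 passed with any 1 time left out.

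Chlorophyll synthesis stood on the other side. Of 12 measured genes, a set also formed after values had been seen, 0 passed as higher and 4 (33.3%, against 4.15% of all genes) as lower, and the median difference was -0.33. CHLH (LOC4332690) and CHLD (LOC4334537) are subunits of magnesium chelatase, GSA (LOC4346136) makes the ring precursor aminolevulinic acid, and PORA (LOC4337415) reduces protochlorophyllide in the light. CHLH read 3237, 2265 and 1401 in ZS97 and 3950.2, 3775 and 3129 in 9311 (log2 -0.72, SE 0.15; adjusted p = 0.0239), with differences of -0.28, -0.73 and -1.14. GSA read 1099.6, 857 and 684 in ZS97 and 1282, 1523 and 1367 in 9311 (log2 -0.66; adjusted p = 0.0324). CHLD read 1103, 814 and 852 in ZS97 and 1317, 1233 and 1266 in 9311 (log2 -0.46; adjusted p = 0.0378). For these genes the accessions lay close together before cold and farther apart in cold. All 4 calls were lost without the pair at 6 h or the pair at 24 h. The difference of CHLH was then -0.71 and -0.51, and that of CHLD -0.40 and -0.41. The 8 genes that did not pass all had fitted differences below 0, some of them close to it. GluTR stood at -0.28, CHLI at -0.39, CHLP at -0.30 and PORB at -0.37. CAO stood at -0.20, HEMB and HEMD at -0.10 and CHLG at -0.03. CHLG was slightly higher in ZS97 before cold (0.01) and at 24 h (0.03).

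Genes that recycle carbon and nitrogen were compared in the same way, in sets formed after values had been seen. Of 7 genes of the glyoxylate cycle and peroxisome, 3 were higher (ICL, MS and PEX11-5, which helps peroxisomes divide; 42.9%, against 9.09% of all genes) and 0 lower, with a median of 0.55, and all 3 passed with any 1 time left out. PEX11-5 (LOC4339973) read 982, 1379 and 879 in ZS97 and 637, 586 and 529 in 9311. Its relatives PEX11-1 and PEX11-4 had differences of -0.02 and -0.25. Of 6 genes of leucine breakdown and the electron transfer flavoprotein, which passes electrons from that pathway to the respiratory chain, 4 (66.7%) were higher and 0 lower (median 0.44). IVD (LOC4337676), the isovaleryl-CoA dehydrogenase, read 699, 928 and 921 in ZS97 and 357, 299 and 419.5 in 9311 (log2 1.17, SE 0.13; adjusted p = 0.00162). ETFA (LOC4334698), the alpha subunit of the flavoprotein, read 759, 1059.7 and 908 in ZS97 and 489.9, 460.3 and 487 in 9311 (log2 0.87; adjusted p = 0.00499). Neither gene's groups overlapped. MCCA and ETF-QO passed at 0.37 and 0.51, calls lost without the pair at 6 h or at 24 h (MCCA also without the pair before cold), and the beta subunit gene ETFB stood at -0.17.

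Of 5 genes of arginine, urea and proline, 4 were higher (80%, against 9.09% of all genes) and 0 lower, with a median of 0.68. The urea transporter gene DUR3 (LOC4349520) read 271, 321 and 194 in ZS97 and 136, 91.8 and 83.3 in 9311 (log2 1.11, SE 0.13; adjusted p = 0.00193). P5CS1, the entry enzyme of proline synthesis, read 604, 557 and 657 in ZS97 and 375, 325 and 401 in 9311, with differences of 0.64, 0.72 and 0.67 (adjusted p = 0.00452). Arginase ARG1 (LOC4334912) read 424, 534 and 577 in ZS97 and 325, 247 and 349.7 in 9311, and ornithine aminotransferase OAT (LOC4333554) 323, 562 and 461 in ZS97 and 284, 212 and 231 in 9311. ARG1 and OAT lost their calls without the pair at 6 h or at 24 h. The second proline enzyme gene, P5CS2, was under the control level on all 6 arrays. Among 8 subunits of succinate dehydrogenase, SDH3-2 and SDH2-1 (25%) were higher and 0 lower, with a median of 0.22. SDH2-1 (LOC4344541) read 541, 591 and 617 in ZS97 and 410.1, 396 and 419 in 9311 (log2 0.48; adjusted p = 0.0234), a call lost without the pair at 6 h or at 24 h, where the difference was 0.45 and 0.46. SDH1, SDH3-1 and SDH4 had differences of 0.31, 0.28 and 0.15 and did not pass.

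**Figure D3:**
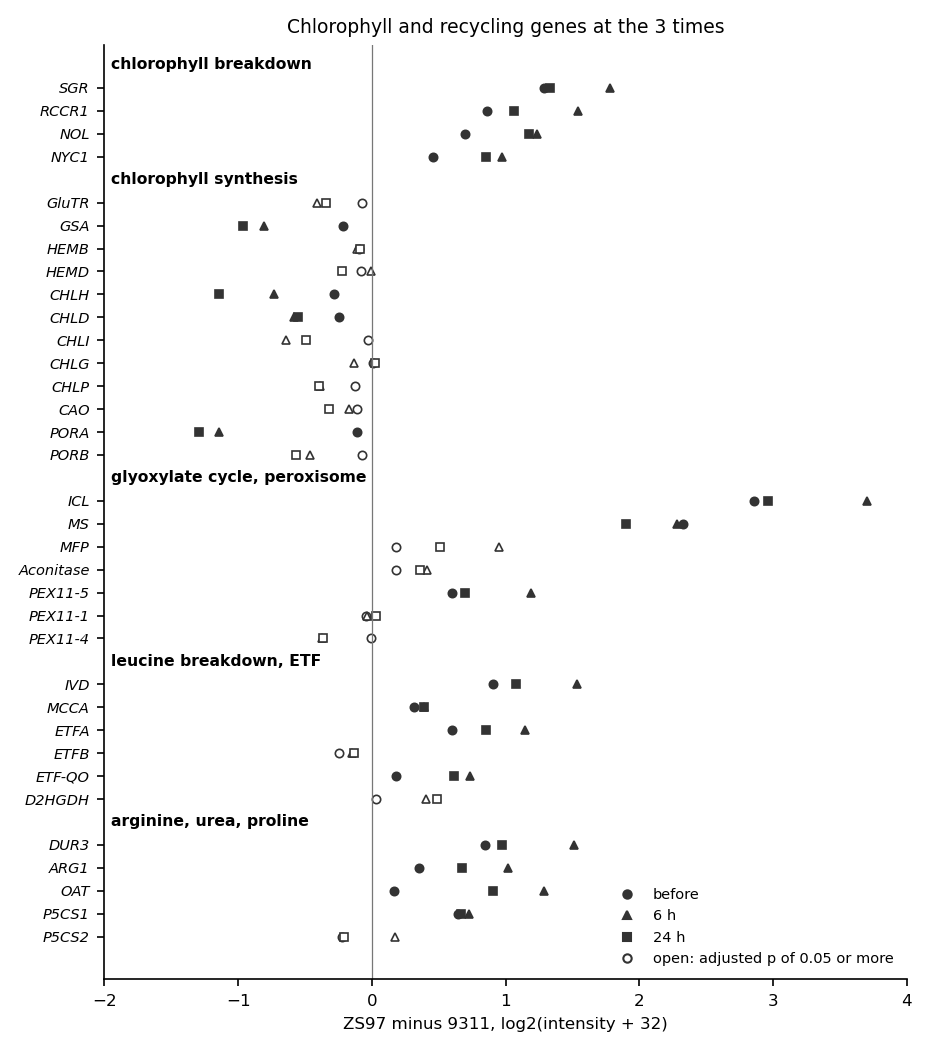
Differences ZS97 minus 9311 in log2(intensity + 32) for genes of chlorophyll breakdown, chlorophyll synthesis, the glyoxylate cycle and peroxisome, leucine breakdown, and arginine, urea and proline. Circles are before cold, triangles 6 h and squares 24 h, and open markers are genes that did not pass. The 4 breakdown genes lie right of 0 at all times, and the 4 synthesis genes that passed lie left of 0, farther in cold than before it.

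Known loci of heading date and plant form were a second set of interest, since these accessions are crop lines. DTH8 (LOC4344784), a subunit of the NF-Y factor that delays heading under long days, read 7, 8.94 and 8.23 in ZS97 and 60, 45.1 and 117 in 9311 (log2 -1.35, SE 0.15; adjusted p = 0.00159). The ZS97 readings were far under the control level, and 9311 was over it on 1 array only. On the 16 arrays of the other accessions DTH8 read 28 to 108, above every ZS97 reading. Hd1 (LOC4340746), which acts on the florigen gene, was dim in both, at 43.9, 47.3 and 42.8 in ZS97 and 22.4, 25.8 and 29 in 9311 (log2 0.41; adjusted p = 0.00516), under the control level on all 6 arrays. The phytochrome gene PHYC (LOC4334135) read 304, 192 and 142 in ZS97 and 445, 404 and 338 in 9311 (log2 -0.85; adjusted p = 0.00599), a call lost without the pair at 24 h. The florigen gene Hd3a was under the control level in both. Over the 16 measured genes of heading date and photoperiod, 1 was higher and 2 were lower, with a median of -0.06. That is 18.8% in all, against 13.2% of all genes. Ghd7 and Ehd1 were not analysed here.

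TAC1, which opens the tiller angle, read 14.2, 16.1 and 15.3 in ZS97 and 120.4, 67 and 126 in 9311 (log2 -1.50, SE 0.13; adjusted p = 0.000337). The groups did not overlap, and ZS97 read below the array medians throughout. SD1 (LOC4325003), the gibberellin 20-oxidase of the semidwarf locus, read 272, 180.2 and 93.5 in ZS97 and 117, 111 and 70.7 in 9311, with differences of 1.03, 0.57 and 0.29 (adjusted p = 0.0269). Its groups overlapped across times, though ZS97 was higher at each time, and the call was lost without the pair at 6 h. TAC1 and SD1 were the 2 of 15 measured agronomic loci that passed (13.3% against 13.2% of all genes, median -0.02). Of 13 gibberellin and brassinosteroid genes 3 were higher and 1 lower (30.8% against 13.2% of all genes, median 0.10). GA20OX3 read 185, 287 and 320.4 in ZS97 and 135, 123 and 210.3 in 9311, and BZR1, a factor of brassinosteroid signalling, 256, 301 and 806 in ZS97 and 208, 216 and 493 in 9311. The fourth call was KAO, described with the cold differences, and all 4 were lost without the pair at 6 h.

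Some clock genes and cold regulators were higher in ZS97, and none measured here passed as lower. Of 7 clock genes, 2 were higher (28.6%, against 9.09% of all genes) and 0 lower, with a median of 0.28. PRR1 (LOC4330000), the rice relative of TOC1, read 191, 184 and 359 in ZS97 and 97.7, 86.8 and 161 in 9311 (log2 0.89, SE 0.09; adjusted p = 0.000774). PRR73 (LOC4332464) differed by 0.49 (adjusted p = 0.0348), but its second probe set stood at -0.30 and did not pass, and the call was lost without the pair at 6 h or at 24 h. LHY and GI, at -0.07 and 0.22, did not pass. DREB1A (LOC4347620), a factor that binds promoters of cold genes, read 59.6, 4128 and 4309 in ZS97 and 37.1, 3846 and 4818 in 9311, a difference of 0.12 (SE 0.12; adjusted p = 0.624). DREB1B read 67.2, 4990.1 and 5781 in ZS97 and 37.3, 4126 and 5476 in 9311 (log2 0.29; adjusted p = 0.164), and DREB1G had a difference of 0.33 (adjusted p = 0.227). Both accessions thus read high in cold for these factors and low before it. Of 18 cold and stress regulators 3 (16.7%, against 9.09%) were higher, MYB2 (log2 0.39), MYB4 (0.52) and WRKY71 (0.53), and 0 lower (median 0.13). Their adjusted p-values lay just under the limit, at 0.0465, 0.0486 and 0.0449. All 3 calls were lost without the pair at 6 h or at 24 h. They were also lost with quantile normalization and with 24 or 22 arrays in the fit, and that of WRKY71 without the pair before cold. A second probe set of MYB4, over the control level on at least 1 array, stood at 0.08 and did not pass.

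The defence lists lay on both sides of the share of all genes that passed (13.2%). Of 17 genes of diterpenoid phytoalexin synthesis 0 were higher and 0 lower (median -0.10), and 12 were not over the control level. Of 20 genes of jasmonate synthesis and JAZ repressors 1 was higher and 1 lower (10% in all; median 0.04). LOX8 (LOC4345993), a lipoxygenase, read 38, 48.2 and 229.6 in ZS97 and 172, 147.6 and 384 in 9311 (log2 -1.12, SE 0.15; adjusted p = 0.00345). AOS2 (LOC4332121), an allene oxide synthase, read 104, 324 and 572 in ZS97 and 74.8, 164 and 259 in 9311 (log2 0.75; adjusted p = 0.0143), a call lost without the pair at 6 h or at 24 h. Of 14 pathogenesis-related and defence genes 3 passed (21.4%). Of these, 2 were higher, the coactivator NPR1 (0.43) and the chitin receptor kinase CERK1 (0.43), and 1 lower, Xa13, which is the sugar transporter gene SWEET11 (LOC4346153; -0.55, adjusted p = 0.00321). SWEET11 read 61.2, 47.8 and 57.4 in ZS97, under the control level, and 109, 92 and 88.1 in 9311. NPR1 and CERK1 lost their calls without the pair at 6 h or at 24 h.

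Of 39 nutrient and metal transport genes 3 were higher and 3 lower (15.4% against 13.2% of all genes, median 0.05). The potassium channel gene AKT1 (LOC4326245) read 312, 225 and 182 in ZS97 and 169, 121 and 113 in 9311 (log2 0.70; adjusted p = 0.00291). The bHLH gene IRO3 (LOC4332972), a regulator of the iron response, read 183, 118 and 113 in ZS97 and 422, 235 and 176 in 9311 (log2 -0.81; adjusted p = 0.00529). IRO3 was lower in ZS97 at each time, although its ZS97 value before cold exceeded the 9311 value at 24 h. YSL13 and ZIP4 were higher by 0.41 and 0.39 and the silicon transporter gene Lsi6 had a difference of -0.49, calls that were lost without the pair at 24 h. Of 21 aquaporins, water and solute channels, 4 were higher (19%, against 9.09% of all genes) and 1 lower (Lsi6), with a median of 0.18. PIP2-2 (LOC4330049) read 373, 247 and 283 in ZS97 and 165, 139 and 159 in 9311 (log2 0.83, SE 0.10; adjusted p = 0.00242). PIP2-5 (LOC4343121) read 1064, 657 and 163 in ZS97 and 576, 126 and 93.1 in 9311, with a difference of 2.12 at 6 h against 0.85 before cold and 0.64 at 24 h. PIP1-3 (0.48) and PIP2-4 (0.54) were also higher, calls lost, as that of Lsi6, without 1 of the times. A second probe set of PIP2-2 stood at 0.05 and did not pass.

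The germin-like proteins, secreted oxidases related to cereal germin, held 0 higher and 3 lower of 9 (33.3%, against 4.15% of all genes; median -0.08). GER2 (LOC4344839) read 164, 162 and 108 in ZS97 and 293, 348 and 259 in 9311, and its neighbour GER1 (LOC4344840) 319.8, 243 and 189 in ZS97 and 548, 535 and 334 in 9311 (log2 -0.92 and -0.83). GER5 passed at -0.64, a call lost without the pair at 6 h or at 24 h. Of 25 expansins and xyloglucan enzymes, which loosen the cell wall, 3 were higher and 2 lower (20% against 13.2% of all genes, median -0.02). EXPB6 (LOC4349347) read 459, 258 and 125 in ZS97 and 227, 113 and 77.9 in 9311, and EXPB2 (LOC4349348) 479.7, 416 and 270.3 in ZS97 and 591, 583 and 476 in 9311. These 2 members of 1 gene cluster thus differed in opposite directions at every time, with fitted values of 0.81 and -0.50, the second lost without a cold pair. EXPA31, dim in both accessions, and EXPB4 were higher by 0.95 and 0.61, and EXPB7 had a difference of -0.43, the calls of EXPB4 and EXPB7 being lost without 1 of the times. The metallothionein gene MT1B (LOC4332487), a metal-binding protein, read 2431, 3211 and 3234 in ZS97 and 1309, 755 and 1339.8 in 9311 (log2 1.39, SE 0.19; adjusted p = 0.00441), while the other 3 metallothioneins did not pass. Among 5 histone genes H2B.10 and H2B.6 (40%, against 9.09% of all genes) were higher, at 1.23 and 0.67, the second lost without a cold pair.

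Further families are given against the 13.2% of all genes that passed. Of 19 cytochrome P450s and 11 AP2/ERF factors 0 passed, of 52 auxin-related genes 3 (5.77%) were higher (IAA6, SAUR39 and IAA18) and 0 lower (median 0.02), and of 21 ribosomal proteins 1 (4.76%, RPS15) was higher. Of 6 glutathione S-transferases 1 (16.7%), GST1, was lower. Of 8 NAC factors 1 (12.5%) was higher (NAC2, 0.58), of 8 MYB factors 2 (25%; MYB2 and MYB4), and of 6 WRKY factors 2 (33.3%; WRKY71 and WRKY24). WRKY24 (LOC4327518) read 54, 222 and 2155 in ZS97 and 26, 90.2 and 459 in 9311, with differences of 0.57, 1.05 and 2.16 at the 3 times (adjusted p = 0.0211). Both accessions read highest at 24 h, ZS97 farther so. Of these calls, only that of IAA6 was kept with any 1 time left out.

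A description by presence gave a similar picture. Over the control level on all 3 ZS97 arrays and on no 9311 array were 333 probe sets (0.582%), and the reverse held for 100 (0.175%). Among genes the shares were 0.961% and 0.262%. The split moves with the control level of the 9311 array at 6 h. With 1 common level for all 6 arrays, an alternative chosen after seeing the data, the counts were 272 and 197. Named genes whose chosen probe set was over the level only in ZS97 included ICL, SDH3-2, HSP17.4 and OPR10, of the family of 12-oxophytodienoate reductases, beside genes with smaller differences. OPR10 (LOC4340486) read 117, 209 and 1158 in ZS97 and 72.1, 63.7 and 83.5 in 9311, with differences of 0.52, 1.33 and 3.36 (adjusted p = 0.0493), a call lost without the pair at 6 h. Of the genes with smaller differences, ETF-QO, YSL13, OsCASPL3A1, CKX4, BGLU3, MIA40, RH10, ELA3 and tom2 passed at 0.31 to 0.75. AOX1, MAGO1 and Adh2 did not pass. Of those that passed, ELA3 and tom2 did so with any 1 time left out and the others did not. BGLU3 read 263, 180 and 138 in ZS97 and 91.7, 122 and 84.6 in 9311. Its other probe sets had the opposite sign, at -0.05 and -0.18, and did not pass. AOX1, the alternative oxidase, read 106, 111 and 208 in ZS97 and 87.3, 77.6 and 92.3 in 9311 (log2 0.52; adjusted p = 0.0558). Named genes whose chosen probe set was over the level only in 9311 were OsDOS, RGP1, GLO3 and 4CLL7. The second probe sets of OsDOS and RGP1 were over the control level on at least 1 array and did not share the lower reading of ZS97.

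The second question was which differences were confined to cold. With 1 array per accession and time this has no test, and a rule of size was used: under 0.5 in size before cold, at least 1 in 1 direction at both 6 h and 24 h, and over the control level on at least 1 of those arrays. The rule was met by 47 probe sets, 32 toward ZS97 (0.0559%) and 15 toward 9311 (0.0262%), among them 16 and 10 genes (0.0894% and 0.0559%). The reverse rule, at least 1 before cold and under 0.5 at both cold times, was met by 34 probe sets. It asked for 1 large difference only and set no control level, so this count is not like the 47. Counted in that way, 56 probe sets differed at 6 h alone and 86 at 24 h alone. Of the 47, 37 also passed the test over all times. Most lay close to the limits of the rule. With at least 1.5 in cold 1 and 2 probe sets were left, and with under 0.3 before cold 15 and 7.

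Toward ZS97, the ammonium transporter gene AMT3-2 (LOC4334717) read 338, 395 and 305 in ZS97 and 397, 168 and 124 in 9311, with differences of -0.22, 1.096 and 1.12. ZS97 stayed near its level before cold, and 9311 read lower in cold. LOC4332717 had a similar course, at 313, 294 and 258 in ZS97 and 219, 109 and 85 in 9311. LOC4325422 read 193, 281 and 202 in ZS97 and 128, 75.3 and 68.2 in 9311. LOC4348105 read higher in cold in both accessions, at 36.9, 140.1 and 443 in ZS97 and 21.4, 41.5 and 158 in 9311. Toward 9311, PORA read 2964, 1155 and 371 in ZS97 and 3207, 2595 and 953 in 9311, with differences of -0.11, -1.15 and -1.29. Both accessions read lower in cold, ZS97 earlier. KAO (LOC4339885), which makes a gibberellin precursor, read 247, 132 and 75.3 in ZS97 and 354, 449 and 218 in 9311. The small heat shock protein gene HSP24.1 (LOC4330786) read 529, 236 and 144 in ZS97 and 630.3, 715 and 342 in 9311, and the zinc finger gene OsC3H54 (LOC4344566) 909.7, 454 and 288 in ZS97 and 1299, 987 and 681 in 9311. These 3 genes were lower at 6 h than before cold in ZS97, whereas in 9311 KAO and HSP24.1 were higher at 6 h and OsC3H54 was lower. LOC4344199 read 166, 147.4 and 177 in ZS97 and 230.3, 493 and 720.2 in 9311, and LOC4341607 read 474, 471 and 822 in ZS97 and 430.4, 1360.1 and 2406 in 9311. In both, 9311 read higher at 6 h than before cold, and ZS97 did not.

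**Figure D4:**
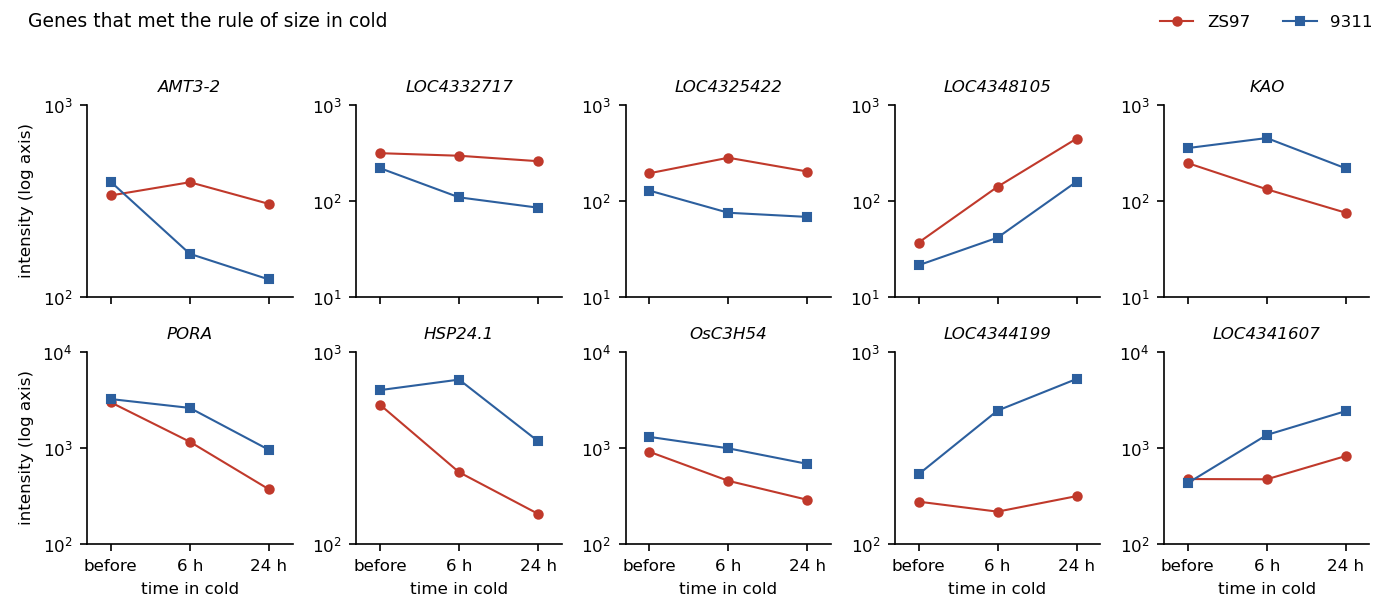
Intensity (log axis) of 10 genes that met the rule of size in cold, before cold and after 6 h and 24 h, ZS97 as red circles and 9311 as blue squares. In the first 4 panels ZS97 reads higher in cold and in the last 6 panels lower, with the accessions closer together before cold; each marker is 1 array, so no error can be drawn.

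The other 6 accessions show on which side a difference lay, given as a description since they were sampled at the same times. Of the 240 probe sets at least 2-fold higher in ZS97 at each time, ZS97 lay above all arrays of the other accessions for 48, and 9311 lay below all of them for 76. Of the 170 that were lower, ZS97 lay below all others for 59 and 9311 above all others for 44. Taking the pair of mixed arrays in changed none of these 4 counts. By distance of mean levels, MH63, another indica line, was nearer to ZS97 than to 9311 for 25.8% of the 240 and 35.3% of the 170, against 66.2% to 73.3% and 48.8% to 54.1% for the other 5 accessions. MH63 was low, as 9311 was, for LOC4328727 (15.5 to 18.7) and LOC4343183 (27.9 to 32.7), and high, as 9311 was, for TAC1 (275 to 395). SDH3-2 was low in 9311, in IRAT109 (43.1 to 69.4) and in MH63 (94.4 to 134). LOC4342229 read 1474 to 2209 on the 16 arrays of the other accessions, as in 9311, so that ZS97 stood alone.

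**Figure D5:**
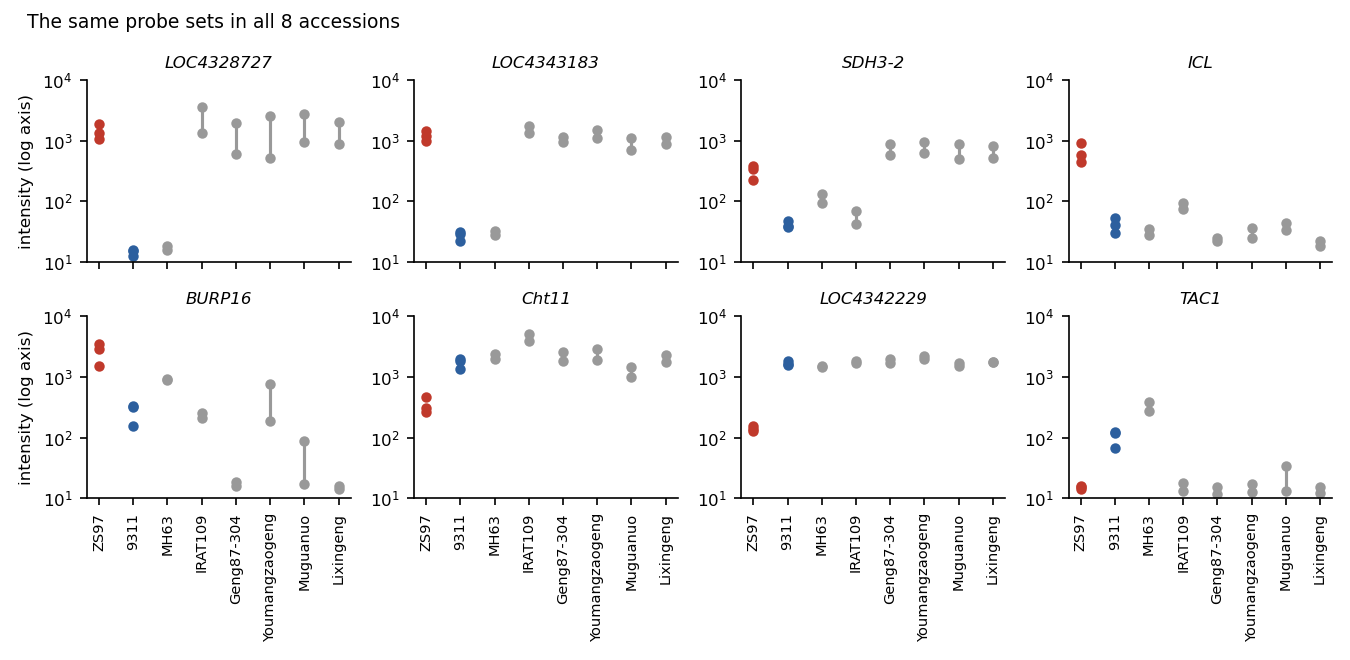
Intensity (log axis) of 8 genes in all 8 accessions, with the 3 arrays of ZS97 in red and of 9311 in blue, and for each other accession its lowest and highest array, without the pair of mixed arrays, joined in grey. ICL stands out in ZS97 alone and Cht11 and LOC4342229 read low in ZS97 alone, while the low levels of LOC4328727 and LOC4343183 and the high level of TAC1 in 9311 are shared with MH63.

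Genes with a difference were also placed by their neighbours, as ordered in RefSeq assembly ASM3414082v1. Of the 212 genes at least 2-fold apart at each time, 29 (13.7%) had such a gene as the next measured gene on the chromosome, against 413 of all 17905 genes (2.31%). For genes that passed, the shares were 34.2% and 24.3%. The 212 formed 16 adjacent pairs, and in 14 both genes differed in the same direction, as in HSP17.4 with HSP18.1. LOC4324010, a member of pairs among these 14, differed by 2.73 on its chosen probe set. Another of its probe sets stood at -4.65 (adjusted p = 3.34e-07), so the direction of its pairs depends on the probe set chosen. Neighbouring genes can have similar sequences and share probes, which was not tested. The share at least 2-fold apart was highest on chromosome 11, at 3.31% of its genes, and lowest on chromosome 5, at 0.397%. For each chromosome 1 run of 15 measured genes was listed, and that of chromosome 11 held the most genes at least 2-fold apart. It held 6, all 6 higher in ZS97. The runs of the other chromosomes held 1 to 4 such genes, some of them in both directions.

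Where a gene had other probe sets of its own, these gave a check within the same arrays. For the 476 genes that passed and had other single-gene probe sets, 456 of 625 such probe sets (73%) had the same sign, and 187 of these also passed. Another 15 passed with the opposite sign. Among other probe sets that read over the control level on at least 1 array, 247 of 303 (81.5%) had the same sign, 141 of them passing, and 11 passed with the opposite sign. For the genes at least 2-fold apart at each time, 32 of 48 such probe sets (66.7%) had the same sign, 23 of them passing, and 4 passed with the opposite sign.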

How the data were processed

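Rice shoots and leaves were measured on Affymetrix arrays, 24 in the series, of which the 3 of ZS97 and the 3 of 9311 were compared. TRIzol was used for the RNA and cRNA was labelled with biotin, per the labels' protocols. The authors deposited probe set intensity on a linear scale, and how they summarised and scaled it is not given in the sources used. With 1 array for each accession and time, the number of arrays limits the precision.

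Of 57381 probe sets, 187 controls were left out. Values were taken as log2(value + 32), with no further normalization. The model was limma 3.58.1 in R 4.3.3 (lmFit, then eBayes with trend set), with accession and time point as terms, on 57194 probe sets with Benjamini-Hochberg adjustment. It was tested on simulated data first. The times pair the arrays: deviations from the accession means correlated at 0.804, 0.382 and 0.836 between accessions at the same time. Tables and figures were made with Python 3.11.15, pandas 2.3.3 and matplotlib 3.10.9.

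The annotation table gave 1 gene for 22436 probe sets, several for 95 (not named) and none for 34663. Current names came from the RefSeq table of assembly ASM3414082v1. Each gene was read by whichever probe set averaged highest over the 24 arrays, shared ones (_x_at, _s_at) set aside where it had another. Named were, per direction, the 12 genes with a name and the 5 of any name that passed with the largest smallest-of-3 difference. Also named were list members that passed (up to 8 a list), genes of the cold rule, and genes over the control level in 1 accession only. The members and lists were chosen with earlier results of these data known, and the sets on chlorophyll, recycling and succinate dehydrogenase after values were seen, so their counts are descriptions. The tables held no gene descriptions, so families were matched by symbol and families defined only by description were not analysed here. The offset, normalization, filter, arrays in the fit, block, trend and times were varied.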

Additional observations from a re-analysis of the deposited data

Results flagged for a closer look

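For 11 of the named genes, both cold arrays of ZS97 lay on one side of the ZS97 array before cold, and both cold arrays of 9311 lay on the other side of theirs. This difference was not tested, since there is 1 array per accession and time. Among all 17905 genes 1998 (11.2%) had such opposite changes, and among the genes whose values were tabulated 11 (7.48%). The changes below are from before cold, on the log2(value + 32) scale, at 6 h and 24 h.

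The ornithine aminotransferase gene OAT changed by 0.74 and 0.47 in ZS97 and by -0.37 and -0.26 in 9311. LOC4325422 changed by 0.47 and 0.052 in ZS97 and by -0.58 and -0.68 in 9311. GSA, of chlorophyll synthesis, changed by -0.35 and -0.66 in ZS97 and by 0.24 and 0.09 in 9311. For these 3 genes at least 1 change was over 0.5 in size.

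The electron transfer genes ETFA (0.47 and 0.25 in ZS97, -0.08 and -0.01 in 9311) and ETF-QO (0.33 and 0.43 in ZS97, -0.22 and -0.00 in 9311) had 9311 values near 0. YSL13 changed by 0.29 and 0.29 in ZS97 and by -0.10 and -0.03 in 9311, and PRR73 by 0.11 and 0.18 in ZS97 and by -0.28 and -0.14 in 9311. MAGO1 changed by 0.26 and 0.16 in ZS97 and by -0.03 and -0.13 in 9311, and tom2 by 0.16 and 0.013 in ZS97 and by -0.29 and -0.19 in 9311. RGP1 changed by -0.14 and -0.30 in ZS97 and by 0.18 and 0.05 in 9311. Hd3a, under the control level on all 6 arrays, changed by 0.12 and 0.026 in ZS97 and by -0.03 and -0.02 in 9311.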

How the results depend on the processing

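Under 11 alternatives, all but the filter on dim probe sets and the fit without the block, 1499 probe sets (930 higher in ZS97, 569 lower) passed in 1 direction, and 992 also did so without the block. The 4630 probe sets that passed became 7194 with 22 arrays in the fit (3130 lower) and 1153 with no replicate block, that is with the pairing by time point left out (671 higher, 482 lower). Leaving out both arrays of 1 time gave 2081 (24 h; 1332 higher, 749 lower), 2216 (6 h; 1311 and 905) and 5462 (before cold; 3432 and 2030). With only probe sets over the control level on 3 or more arrays, 16590 were tested and 1071 were lower, of 3090 in all. The 410 probe sets at least 2-fold apart at each time became 726 with an offset of 1 (418 higher, 308 lower), and an offset of 64 left 111 lower. Offsets move dim probe sets most by construction. The 32 and 15 probe sets confined to cold became 15 and 7 with under 0.3 before cold, 1 and 2 with at least 1.5 in cold, where the balance turned, and 21 higher with an offset of 64. With 1 common control level 197 probe sets were on in 9311 alone, against 100. The other alternatives left these counts within 1.5 times. Why the counts moved was otherwise not tested. Of 73 list members named, 40 lost their call when a time was left out and 15 passed under every alternative. Differences of probe sets under the control level are limited by dim signal.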
